A study of Mus musculus with 5 samples.

Results

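The genes of DNA replication licensing and of the replication fork were examined for Gfi1 and Lsd1 occupancy at their promoters in mouse medulloblastoma. The set held 45 protein-coding genes out of 20807 on the autosomes. Its members were chosen by the known role of their products, with earlier results of these data known. They encode the origin recognition complex, the MCM2-7 helicase and its loaders, the factors that turn the helicase on, the replicative polymerases, the sliding clamp and its loader, the single-strand binding protein RPA, the enzymes that join lagging-strand fragments, and enzymes of deoxynucleotide synthesis.

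Replication is licensed when the origin recognition complex, Cdc6 and Cdt1 load a ring of MCM proteins onto chromatin, and Gmnn (geminin) holds Cdt1 back once DNA synthesis has begun. The Cdc7-Dbf4 kinase, Cdc45 and the GINS proteins then turn the ring into an active helicase, behind which the polymerases copy both strands. Many of these genes are transcribed at the border of G1 and S phase under the control of E2F factors. Gfi1 is a zinc-finger repressor that recruits the histone demethylase Lsd1 through its SNAG domain.

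The series is chromatin immunoprecipitation with sequencing (ChIP-seq) from MG tumors, a model of Gfi1-activated medulloblastoma. Prominin-1 positive, lineage-negative cerebellar stem cells from C57BL/6 pups aged 5 to 7 days were infected with retroviruses encoding Myc and Gfi1 and transplanted, so both drivers were expressed from a virus in every tumor. Tumors 39 and 41, the replicates 1 and 2 of the labels, were each immunoprecipitated with a Gfi1 antibody (GNE-CJS-2) and with an Lsd1 antibody (ab17721), which gave 4 libraries and 1 library per factor and tumor. The only control was input chromatin pooled from tumors with Myc and Gfi1b (MGB), and no peak list of it was analysed here. Tumors were frozen whole, cells of the host may be included, and a peak list does not give expression, so the labelled tissue was not checked against markers. Without libraries from tumors lacking Gfi1, or from normal stem cells, no occupancy could be compared between conditions.

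The Gfi1 lists held 36836 peaks in tumor 39 and 25078 in tumor 41, and the Lsd1 lists 30367 and 33213. They carry no read counts, so the number of reads behind each peak is unknown. By the paper's counts of mapped reads, which were not used here, the deeper library of each factor had the shorter list. Each peak has a score. To compare lists, the score was turned into its percentile within its own list, where 100 is the highest, and each gene was given its highest-scoring peak within 1000 bp of any annotated transcription start site (TSS). A percentile depends on how many weaker peaks its list holds, so the same peak stands higher in a longer list, and percentiles of lists of unequal length are set side by side here with that limit. Ties also occur near the top, where 805 Gfi1 peaks and 113 Lsd1 peaks of tumor 39, and 12 and 419 of tumor 41, had the score 3100. The Gfi1 values of Mcm7 and Lig1 in tumor 39 (98.6) and the Lsd1 values of Mcm7 and Pold2 in tumor 41 (99.2) are such ties.

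No replication gene lacked a promoter peak in any library. In the Gfi1 library of tumor 39 this was 45 of 45 members beside 66.5% of all autosomal protein-coding genes, and in that of tumor 41 it was 45 beside 56.0%. For Lsd1 it was 45 beside 60.2% in tumor 39 and 45 beside 63.4% in tumor 41. Peaks in all 4 libraries were thus present at 45 members and at 54.8% of all genes. The Gfi1 and Lsd1 peaks also overlapped at 45 members in tumor 39 (59.3% of all genes), at 45 in tumor 41 (55.5%) and at 45 in both (54.7%).

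These promoters are rich in CpG dinucleotides, which were counted within 500 bp of a TSS. The members had a median of 64.0 CpGs, with a range of 33 to 118, and the median of all autosomal genes was 51.0. Among the 10347 autosomal genes with at least 52 CpGs, the members' lower quartile, Gfi1 had a peak at 97.8% in tumor 39 and 85.7% in tumor 41, and Lsd1 at 90.3% and 94.4%. A peak in all 4 libraries was present at 85.1% of these CpG-rich genes. All members are set beside this class, here and below, including those with fewer than 52 CpGs. The occupancy of CpG-rich genes as a class was thus much nearer to that of the replication genes than the occupancy of all genes was.

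**Figure D1:**
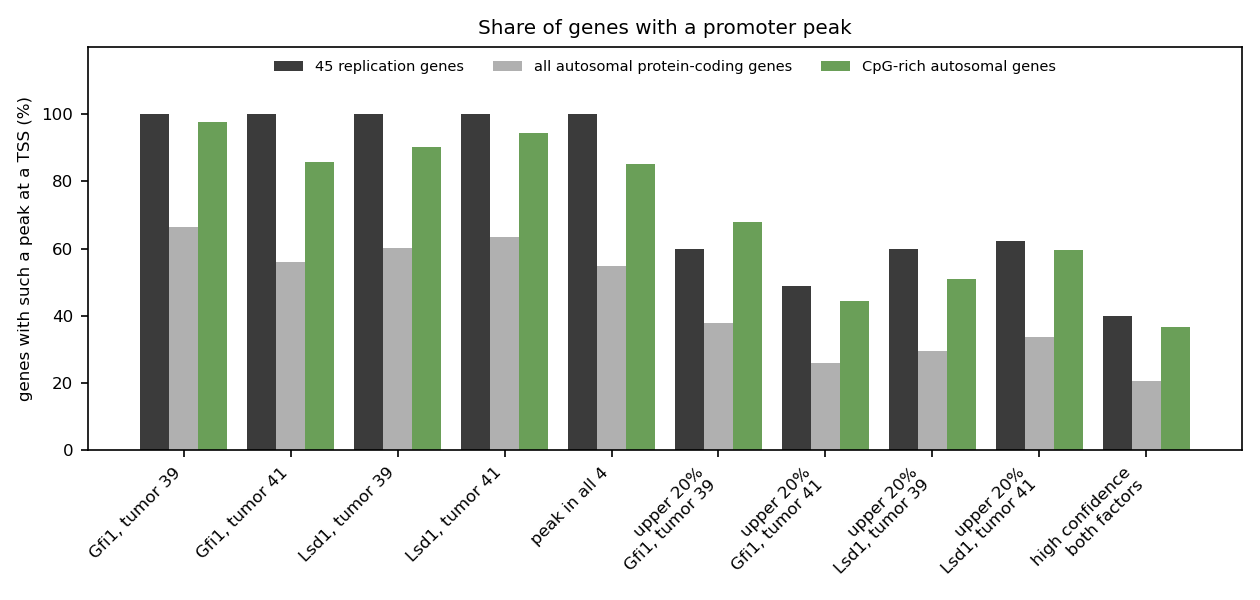
Share of genes (%, y axis) with a peak within 1000 bp of a TSS, in each library and in all 4, with a peak in the upper 20% of its list, and with high-confidence peaks of both factors. Dark bars are the 45 replication genes, which reach 100% in every library, grey bars are all autosomal protein-coding genes and green bars are the autosomal genes with 52 or more CpGs.

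Promoter windows from RefSeq (GRCm38.p6, the mm10 assembly, 250 bases before to 50 bases after the annotated start) were matched to 37 members by symbol. Mcm4, Gmnn, Gins1, Gins2, Gins4, Prim2, Pole and Rfc2 had no window. Of the 46 windows of these 37 members, 44 lay wholly under a peak in all 4 libraries, so the letters printed here are sequence that both factors' peaks covered. Shown are members among those with the highest percentiles (Mcm7, Rfc1, Lig1), the lowest (Mcm10, Tyms, Pole2, Mcm3), and Orc1, the only member with a match to the Gfi1 core motif. Capitals mark E2F sites (TTTCCCGC, TTTCGCGC, TTTGCCGC or TTTGGCGC), CCAAT boxes (CCAAT) and the Gfi1 core (AATCAC), each on either strand and merged where 2 matches overlap.
Mcm7 (chr5:138171834-138172133, minus strand): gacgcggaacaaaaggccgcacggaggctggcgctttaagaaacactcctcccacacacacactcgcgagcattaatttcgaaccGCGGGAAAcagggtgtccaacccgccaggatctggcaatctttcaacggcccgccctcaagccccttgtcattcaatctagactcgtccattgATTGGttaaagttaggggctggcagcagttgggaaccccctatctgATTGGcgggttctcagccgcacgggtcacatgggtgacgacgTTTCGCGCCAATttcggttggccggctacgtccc
Rfc1 (chr5:65335590-65335889, minus strand): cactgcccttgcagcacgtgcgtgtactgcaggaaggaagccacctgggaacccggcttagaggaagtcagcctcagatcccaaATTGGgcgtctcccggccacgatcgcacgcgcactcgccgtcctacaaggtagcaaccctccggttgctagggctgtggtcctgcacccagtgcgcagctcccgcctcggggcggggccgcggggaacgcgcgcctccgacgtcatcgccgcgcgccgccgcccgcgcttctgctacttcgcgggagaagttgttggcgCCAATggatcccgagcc
Lig1 (chr7:13278576-13278875, plus strand): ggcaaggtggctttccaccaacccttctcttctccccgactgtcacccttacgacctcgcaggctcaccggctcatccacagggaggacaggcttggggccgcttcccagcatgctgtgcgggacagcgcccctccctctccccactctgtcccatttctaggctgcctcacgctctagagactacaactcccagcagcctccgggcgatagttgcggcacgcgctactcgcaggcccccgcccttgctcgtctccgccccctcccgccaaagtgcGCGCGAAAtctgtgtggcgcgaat
Orc1 (chr4:108579204-108579503, plus strand): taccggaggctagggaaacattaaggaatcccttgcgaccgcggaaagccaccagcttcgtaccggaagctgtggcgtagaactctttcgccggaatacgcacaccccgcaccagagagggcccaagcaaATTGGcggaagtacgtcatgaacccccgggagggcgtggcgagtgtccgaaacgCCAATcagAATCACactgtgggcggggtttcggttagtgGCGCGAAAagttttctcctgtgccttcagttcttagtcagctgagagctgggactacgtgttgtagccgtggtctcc
Mcm3 (chr1:20820263-20820562, minus strand): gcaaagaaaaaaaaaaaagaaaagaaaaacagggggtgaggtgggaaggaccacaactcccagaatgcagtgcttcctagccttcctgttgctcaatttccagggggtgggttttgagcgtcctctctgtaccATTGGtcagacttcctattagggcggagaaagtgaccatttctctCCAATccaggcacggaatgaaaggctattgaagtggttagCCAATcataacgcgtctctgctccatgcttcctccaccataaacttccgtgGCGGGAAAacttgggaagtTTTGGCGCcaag
Pole2 (chr12:69228141-69228440, minus strand): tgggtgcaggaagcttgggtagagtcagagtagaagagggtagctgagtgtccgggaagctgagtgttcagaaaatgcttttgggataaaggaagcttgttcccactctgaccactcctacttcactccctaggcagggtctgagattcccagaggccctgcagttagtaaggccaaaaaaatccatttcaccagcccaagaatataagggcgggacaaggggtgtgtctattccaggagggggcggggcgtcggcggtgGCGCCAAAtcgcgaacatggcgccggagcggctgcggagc
Tyms (chr5:30073576-30073875, minus strand): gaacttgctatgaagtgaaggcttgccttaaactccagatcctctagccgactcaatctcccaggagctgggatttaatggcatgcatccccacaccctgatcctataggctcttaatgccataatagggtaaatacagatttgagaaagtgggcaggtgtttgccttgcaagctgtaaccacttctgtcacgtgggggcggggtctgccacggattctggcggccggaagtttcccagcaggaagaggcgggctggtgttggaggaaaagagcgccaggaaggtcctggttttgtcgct
Mcm10 (chr2:5012742-5013041, minus strand): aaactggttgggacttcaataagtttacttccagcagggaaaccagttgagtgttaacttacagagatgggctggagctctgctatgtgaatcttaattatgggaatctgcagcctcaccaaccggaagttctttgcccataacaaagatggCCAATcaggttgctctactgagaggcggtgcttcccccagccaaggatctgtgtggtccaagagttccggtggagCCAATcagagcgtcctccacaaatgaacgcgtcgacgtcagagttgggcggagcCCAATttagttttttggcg

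The E2F letters were present in the windows of 14 of the 37 members (37.8%) and of 3.32% of the 15687 autosomal genes with a window. They were found in Mcm3, Mcm5, Mcm6, Mcm7, Orc1, Orc3, Cdc6, Cdt1, Gins3, Pold1, Pold3, Pole2, Rfc3 and Lig1. The Mcm7 window held 2 such sites, one of which ran into a CCAAT box, and the Mcm3 window also held 2. The Rfc1, Tyms and Mcm10 windows held none, and so the motif occurred among the most and the least highly ranked promoters alike. Members with an E2F site had median percentiles, in tumors 39 and 41, of 83.9 and 79.1 for Gfi1 and 81.1 and 79.9 for Lsd1 (n = 14). Members with a window and no site had 84.1 and 80.0 for Gfi1 and 83.9 and 84.3 for Lsd1 (n = 23).

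Other promoter letters were also frequent in the members. A CCAAT box, the element of NF-Y, was in 22 members (59.5%, against 41.7% of all genes), and the GC box GGGCGG, bound by Sp1, was in 28 (75.7% against 51.7%). The ETS letters CCGGAAG were in 14 members (37.8% against 13.6%) and the E-box CACGTG, the element of Myc, in 7 (18.9% against 9.22%). The Gfi1 core was in 1 member, Orc1 (2.70%), and in 11.1% of all genes. The Orc1 match began 58 bases before the RefSeq start, just downstream of a CCAAT box. These matches describe the windows and do not show where a protein was bound, and the windows are much shorter than the peaks. The members are richer in CpG than all genes. The motif shares, that of the E2F letters included, were not compared with CpG-rich genes, so the part of base composition was not tested.

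**Figure D2:**
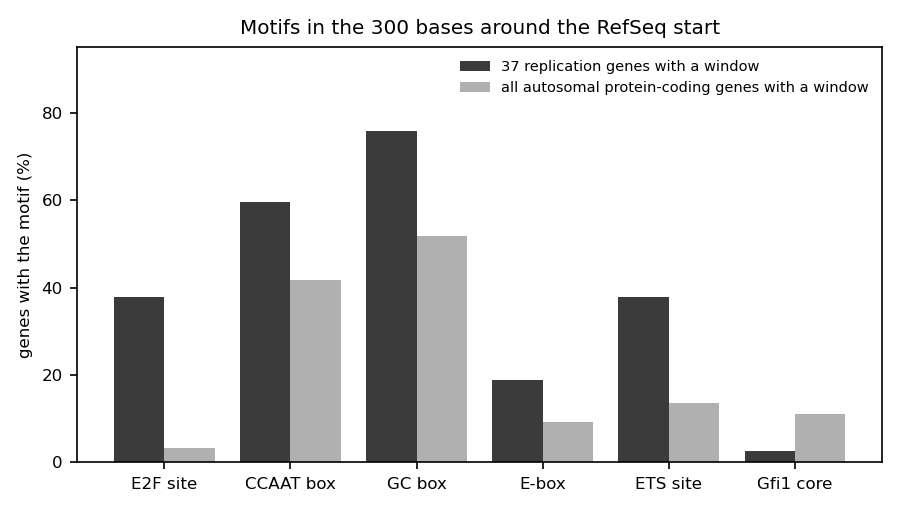
Share of genes (%, y axis) with at least 1 match on either strand in a RefSeq window of 300 bases, for the 37 replication genes with a window (dark) and all 15687 autosomal protein-coding genes with one (grey). The E2F site was in 37.8% of members and 3.32% of all genes, and the Gfi1 core in 2.70% and 11.1%.

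The rank of the members' peaks was close to that of any promoter with a peak. The median percentile of the members was 84.8 and 80.0 for Gfi1 in tumors 39 and 41, or 82.4 ± 3.38 (SD, n = 2), and that of all autosomal genes with a peak was 83.0 and 78.0, or 80.5 ± 3.53. For Lsd1 the members' medians were 83.2 and 81.6 (82.4 ± 1.11) and those of all genes with a peak 79.6 and 81.5 (80.5 ± 1.37). The members' median was the higher in all 4 libraries. Members and all genes share each list, so these SDs describe the levels over tumors and not this difference, which was not tested. In Lsd1 of tumor 41 the medians were nearly equal (81.6 against 81.5). With the principal start alone the members' median was the lower there (81.1 against 81.3). The CpG-rich class has a minimum of 52 CpGs, which some members do not reach. Against that class the members' median was lower in Gfi1 of both tumors (86.9 and 80.9) and in Lsd1 of tumor 41 (85.1), and higher in Lsd1 of tumor 39 (82.7).

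Peaks in the upper 20% of their list were counted next. Gfi1 in tumor 39 had such a peak at 27 members (60.0%, against 37.9% of all genes) and Gfi1 in tumor 41 at 22 (48.9% against 25.9%). Lsd1 had one at 27 members in tumor 39 (60.0% against 29.6%) and at 28 in tumor 41 (62.2% against 33.8%). These shares are of all genes, with or without a peak, so the higher share of the members includes their complete occupancy. Among CpG-rich genes the shares were 67.9%, 44.4%, 50.9% and 59.6% in the same order, so the members' share was lower than that class in 1 library and higher in 3.

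The upper 20% held 18 of the 45 members in all 4 libraries, against 21.0% of all genes and 37.5% of CpG-rich genes. By descending mean percentile they were Mcm7, Pold2, Rfc1, Lig1, Rpa3, Orc6, Mcm4, Pold1, Dbf4, Cdt1, Cdc7, Pcna, Cdc45, Orc4, Orc1, Orc3, Orc2 and Pole. At the other end, 12 members were below the cutoff in all 4 libraries (Rfc4, Gins4, Mcm5, Gins3, Rrm1, Orc5, Prim1, Rfc3, Mcm3, Pole2, Tyms and Mcm10). The other 15 members were above it in 1, 2 or 3 libraries. Neither of these 2 counts was made for all genes or for CpG-rich genes, so they describe the members only. The cutoff passed between neighbors in places: in Gfi1 of tumor 41 it stood at a score of 506.39, with Orc2 at 506.5 and Gins1 at 506.3.

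High-confidence peaks were formed from the upper 20% of each tumor with at least 50% of the tumor 39 peak covered in tumor 41. The rule was taken from the study's methods, but the sets formed here are smaller than the peak sets the study reports. A high-confidence Gfi1 peak was present at 20 members (44.4%, against 24.1% of all genes) and a high-confidence Lsd1 peak at 24 (53.3% against 27.3%). Both were present at 18 of 45 members (against 20.5% of all genes), the same 18 that passed in all 4 libraries. The CpG-rich genes had 42.7%, 47.9% and 36.6% in the same order, close to the members. Rrm2 and Cdc6 had one of Gfi1 alone, and Gins1, Gins2, Mcm2, Pola2, Fen1 and Rfc5 one of Lsd1 alone. That of Gins1 was not at its principal start, where its Lsd1 peaks were below the cutoff. The remaining 19 members had neither.

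**Figure D3:**
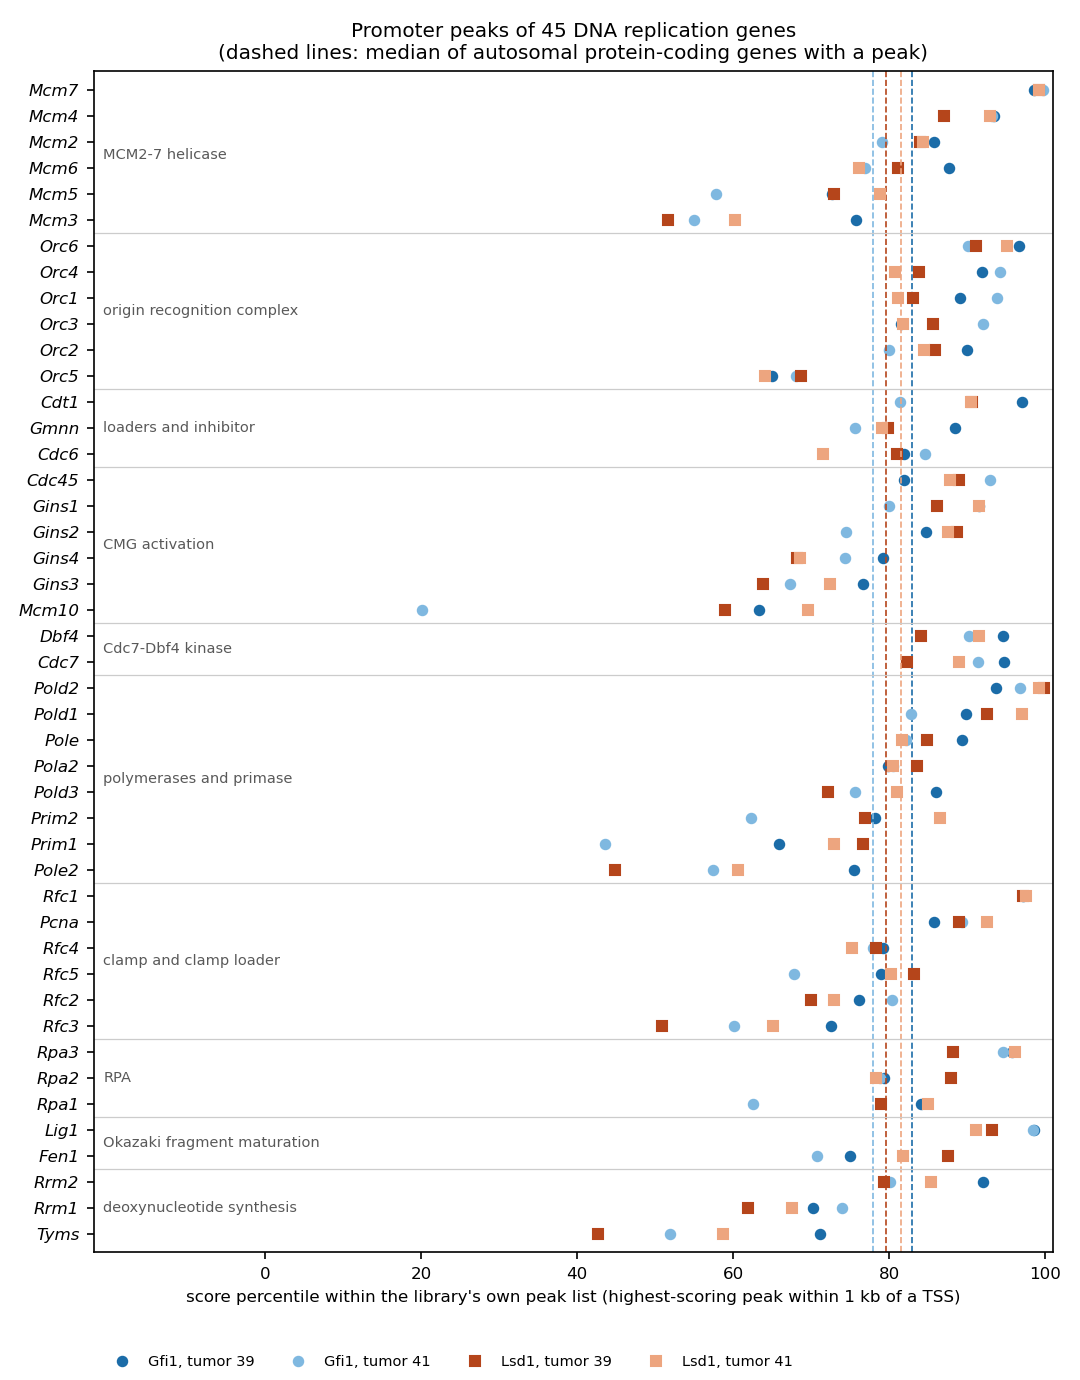
Score percentile (x axis, within each library's own peak list) of the highest-scoring promoter peak of each of the 45 replication genes (rows, grouped by role), with 1 point per library. Mcm7, Pold2 and Rfc1 lie to the right in all 4 libraries, Tyms, Pole2 and Mcm3 lie to the left, and the Gfi1 point of Mcm10 in tumor 41 (20.1) is the lowest of all; dashed lines are the medians of all autosomal genes with a peak.

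Within the origin recognition complex, which marks the sites where helicases are loaded, 5 of 6 subunits were in the upper 20% in all 4 libraries. Orc6 was the highest. In tumors 39 and 41 its percentiles were 96.7 and 90.1 with the Gfi1 antibody and 91.1 and 95.1 with the Lsd1 antibody, and the values of the other members are given in this order. Orc4 stood at 91.9 and 94.2 for Gfi1 and at 83.9 and 80.7 for Lsd1. Orc1, an ATPase subunit, stood at 89.1 and 93.8 for Gfi1 and 83.1 and 81.1 for Lsd1. For both of these genes the lower Gfi1 value was above the higher Lsd1 value. Orc3 was at 81.5 and 92.1 for Gfi1 and 85.6 and 81.8 for Lsd1. Orc2 was at 90.0 and 80.0 for Gfi1 and 85.9 and 84.5 for Lsd1, and in both of these the factors' values overlapped. Orc5 was apart from the other subunits, at 65.0 and 68.1 for Gfi1 and 68.7 and 64.1 for Lsd1.

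The MCM2-7 subunits, which together form 1 ring, spanned almost the whole range of the members. Mcm7 was the highest member of all, at 98.6 and 99.7 for Gfi1 and 99.2 and 99.2 for Lsd1. Its 4 peaks were between 2772 and 5673 bp wide. Mcm4 followed at 93.4 and 93.2 for Gfi1 and 87.1 and 92.9 for Lsd1, and these 2 were the subunits in the upper 20% in every library. Mcm2 was at 85.8 and 79.1 for Gfi1 and 84.0 and 84.3 for Lsd1. Mcm6 was at 87.7 and 76.9 for Gfi1 and 81.1 and 76.2 for Lsd1, so both straddled the cutoff. Mcm5 stood at 72.7 and 57.8 for Gfi1 and 73.0 and 78.8 for Lsd1. Mcm3 was the lowest subunit, at 75.7 and 55.0 for Gfi1 and 51.7 and 60.2 for Lsd1, and its values did not overlap those of Mcm7, Mcm4, Mcm2 or Mcm6. The 4 Mcm3 peaks had nearly the same extent, from 1279 to 1319 bp.

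Among the loading factors, Cdt1 had percentiles of 97.1 and 81.4 for Gfi1 and 90.6 and 90.5 for Lsd1. Its peaks were the widest of the set in 2 libraries, 6822 bp for Gfi1 and 7252 bp for Lsd1 in tumor 39, and ran from upstream of the start across most of this short gene. The interval common to its 4 peaks, 4503 bp, was the longest of any member. Cdc6 was at 81.9 and 84.6 for Gfi1 and 81.0 and 71.5 for Lsd1. Gmnn, the inhibitor of Cdt1, was at 88.4 and 75.6 for Gfi1 and 79.9 and 79.1 for Lsd1. Unlike Cdt1, both were below the cutoff in at least 1 library.

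The factors that activate the loaded helicase were mixed. Cdc45 was at 81.9 and 92.9 for Gfi1 and 89.0 and 87.8 for Lsd1, each of them in the upper 20%. Gins2 was at 84.8 and 74.5 for Gfi1 and 88.7 and 87.6 for Lsd1. Gins4 was at 79.2 and 74.4 for Gfi1 and 68.2 and 68.6 for Lsd1, with every Gfi1 value above every Lsd1 value, and Gins3 was at 76.7 and 67.3 for Gfi1 and 63.8 and 72.4 for Lsd1. Mcm10, which binds the assembled helicase at firing, had the lowest mean over the 4 libraries (53.0), with 63.3 and 20.1 for Gfi1 and 59.0 and 69.6 for Lsd1. This place rested on the Gfi1 library of tumor 41, without which its mean was 64.0 and Tyms (57.5), Pole2 (60.3), Mcm3 (62.5) and Rfc3 (62.8) were lower. In that library the Mcm10 peak had a score of 75.1 and a width of 984 bp and ended 7 bp past the principal start. Both genes of the Cdc7-Dbf4 kinase, which phosphorylates the MCM ring, were in the upper 20% in all libraries. Dbf4 was at 94.6 and 90.2 for Gfi1 and 84.1 and 91.5 for Lsd1, and Cdc7 at 94.7 and 91.4 for Gfi1 and 82.3 and 89.0 for Lsd1.

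The polymerase genes included high and low members of the same enzyme. Pold2, an accessory subunit of polymerase delta, was at 93.7 and 96.8 for Gfi1 and 99.9 and 99.2 for Lsd1. Pold1, the catalytic subunit of that enzyme, was at 89.9 and 82.8 for Gfi1 and 92.6 and 97.1 for Lsd1, so in both genes the Lsd1 percentile was above that of Gfi1 in each tumor. The 4 Pold1 peaks shared only 34 bp, so its values are partly of different sites. Pold3 was lower, at 86.0 and 75.6 for Gfi1 and 72.2 and 81.0 for Lsd1. Pole, the catalytic subunit of polymerase epsilon, was at 89.4 and 82.2 for Gfi1 and 84.9 and 81.6 for Lsd1. Its partner Pole2 was among the lowest, at 75.5 and 57.4 for Gfi1 and 44.8 and 60.6 for Lsd1. The primase subunits, which lay down the RNA primers, were also low in Gfi1 of tumor 41. Prim1 was at 65.9 and 43.6 for Gfi1 and 76.6 and 73.0 for Lsd1, and Prim2 at 78.2 and 62.3 for Gfi1 and 76.9 and 86.5 for Lsd1. Pola2, a subunit of the polymerase that works with primase, was at 79.8 and 80.5 for Gfi1 and 83.6 and 80.5 for Lsd1.

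Of the clamp loader, which opens the Pcna ring onto DNA, the large subunit Rfc1 differed from the small ones. Rfc1 was at 97.2 and 97.2 for Gfi1 and 97.2 and 97.6 for Lsd1 and so hardly varied between libraries. Rfc4 was at 79.2 and 78.0 for Gfi1 and 78.3 and 75.3 for Lsd1. Rfc3 was at 72.5 and 60.1 for Gfi1 and 50.9 and 65.1 for Lsd1. Rfc2 and Rfc5 had means of 74.8 and 77.6, so each of the 4 small subunits had a lower mean than Rfc1 (97.3). Pcna, the clamp, was at 85.8 and 89.3 for Gfi1 and 89.0 and 92.5 for Lsd1.

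The single-strand binding protein RPA showed the same unevenness between subunits of 1 complex. Rpa3, the small subunit, was at 95.8 and 94.6 for Gfi1 and 88.2 and 96.2 for Lsd1. Rpa1 was at 84.1 and 62.5 for Gfi1 and 79.0 and 85.0 for Lsd1, and Rpa2 at 79.4 and 78.8 for Gfi1 and 87.9 and 78.3 for Lsd1. Lig1, the ligase that seals lagging-strand fragments, was at 98.6 and 98.4 for Gfi1 and 93.2 and 91.2 for Lsd1. Fen1, the nuclease that trims the flaps before ligation, was at 75.0 and 70.8 for Gfi1 and 87.5 and 81.8 for Lsd1. The groups of values did not overlap in either gene, with Gfi1 the higher in Lig1 and Lsd1 the higher in Fen1.

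The deoxynucleotide genes had the lowest median of mean percentiles of any role (68.4), with no member in the upper 20% in all 4 libraries. Rrm2, the S-phase subunit of ribonucleotide reductase, was at 92.1 and 80.1 for Gfi1 and 79.3 and 85.4 for Lsd1. Its partner Rrm1 was at 70.2 and 73.9 for Gfi1 and 61.9 and 67.5 for Lsd1. Tyms, the thymidylate synthase, was at 71.2 and 51.9 for Gfi1 and 42.7 and 58.7 for Lsd1. Both lay under the median of all occupied promoters in every library.

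Whether one factor ranked above the other was examined within each tumor. Gfi1 was above Lsd1 at 31 of 45 members in tumor 39 but at 18 in tumor 41. Among the 11408 autosomal genes with 4 peaks it was above at 8041 and 3388. The members' median difference was 5.10 percentile points in tumor 39 and -3.17 in tumor 41. All 11408 autosomal genes with 4 peaks had medians of 4.59 and -4.65, and in each tumor the factor with the longer list had the higher median. When each gene was instead ranked among these same 11408 genes in every library, so that list length did not enter, the members' directions turned. Gfi1 was then above Lsd1 at 22 members in tumor 39 and at 30 in tumor 41 (5911 and 6055 of the 11408 genes). The members' median differences were -1.08 and 6.28 points (0.579 and 1.05 over all 11408 genes). No overall preference of the members for one factor could therefore be read from the lists. With percentiles within lists, Gfi1 was higher in both tumors at 12 members (26.7%, against 20.3% of those genes) and Lsd1 at 8 (17.8% against 20.1%). With ranks among genes it was 18 members for Gfi1 (against 27.2%) and 11 for Lsd1 (24.4% against 22.3%). Of the members with the same sign in both tumors, Orc4 had the largest mean difference towards Gfi1 (10.8 points), followed by Orc1 (9.34) and Gins4 (8.41). Towards Lsd1 the largest was that of Prim1, with differences of -10.7 in tumor 39 and -29.4 in tumor 41, followed by Fen1 (mean -11.8) and Mcm5 (mean -10.6). For Mcm5 the difference in tumor 39 was only -0.243, and it was -21.0 in tumor 41. These 6 genes kept their sign in both tumors when ranked among genes, with mean differences of 28.9 (Orc4), 23.9 (Orc1) and 15.9 (Gins4), and of -22.2 (Prim1), -25.9 (Fen1) and -16.2 (Mcm5). Lig1 (20.1) and Pold1 (-23.5) and Pold2 (-15.2) also did. With 2 tumors and 1 library of each factor in each, these differences were not tested.

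**Figure D4:**
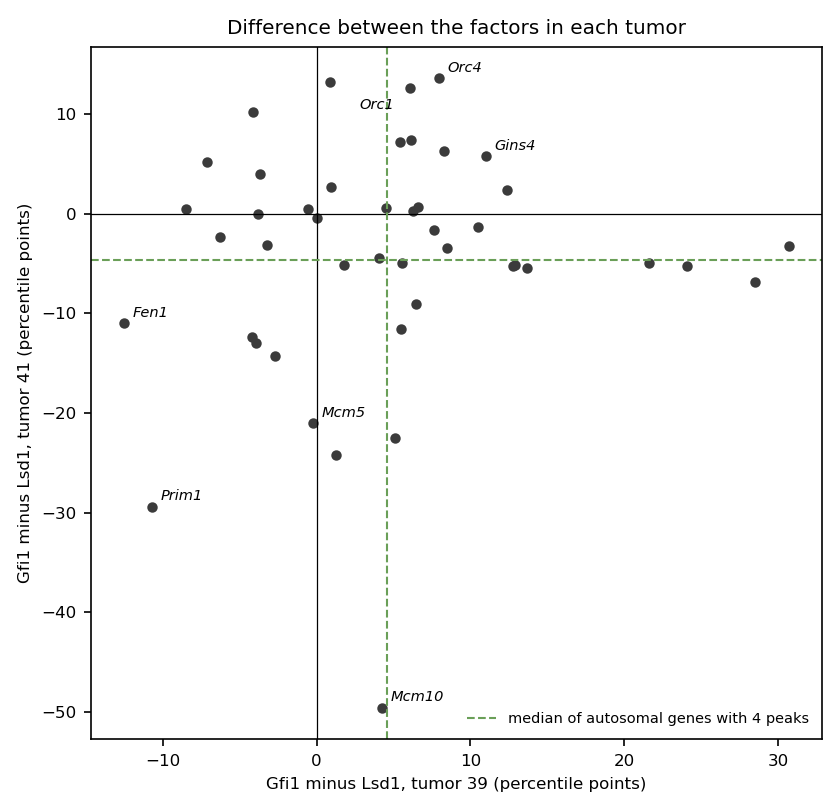
Gfi1 percentile minus Lsd1 percentile (percentile points) in tumor 39 (x axis) and in tumor 41 (y axis), with 1 point for each of the 45 replication genes. Points in the upper right (12 genes, among them Orc4, Orc1 and Gins4) ranked higher for Gfi1 in both tumors and points in the lower left (8 genes, among them Prim1 and Fen1) for Lsd1; dashed lines are the medians of all autosomal genes with 4 peaks, 4.59 and -4.65.

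The order of the members was similar in all libraries. Over the 45 members, Spearman's rho was 0.83 between the Gfi1 libraries and 0.88 between the Lsd1 libraries, and 0.76 and 0.73 between the factors in tumors 39 and 41. Over the 11408 genes with 4 peaks the same values were 0.77, 0.88, 0.76 and 0.77. The libraries of one tumor share chromatin, and genes are not independent replicates, so these coefficients are descriptions. The percentile followed the CpG count with rho of 0.69 and 0.47 for Gfi1 and 0.49 and 0.54 for Lsd1 among members (0.48, 0.15, 0.24 and 0.41 among genes with 4 peaks). The low members Prim1, Mcm10 and Tyms had 33, 37 and 39 CpGs, but Mcm5 with 65 and Rrm1 with 64 were also low. The part of base composition in the ranks was not tested.

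The peaks were centered near the start site. The highest-scoring peak covered the start of the principal transcript at 42 members in each Gfi1 library (93.3%, against 86.9% and 84.2% of genes with a peak) and at 43 in each Lsd1 library (95.6% against 87.3% and 87.3%). The median peak began 950 to 1178 bp upstream of that start and ended 1028 to 1189 bp downstream of it. At 44 of 45 members the 4 peaks had an interval in common, with a median length of 1795 bp. Members' peaks were narrower than those of other occupied promoters, with medians of 1956 and 2057 bp for Gfi1 (2103 and 2210 bp for all genes with a peak) and 2415 and 2100 bp for Lsd1 (2539 and 2410 bp). For Gfi1 the means over tumors were 2006 ± 71.4 and 2156 ± 75.7 bp (SD, n = 2). For Lsd1 they were 2258 ± 223 and 2474 ± 91.6 bp. These SDs describe the levels over tumors, and the difference in width was not tested. Peaks elsewhere in the gene body were seen at 11 and 7 members for Gfi1 (against 25.6% and 19.3% of all genes) and at 9 and 6 for Lsd1 (against 22.2% and 23.6%).

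**Figure D5:**
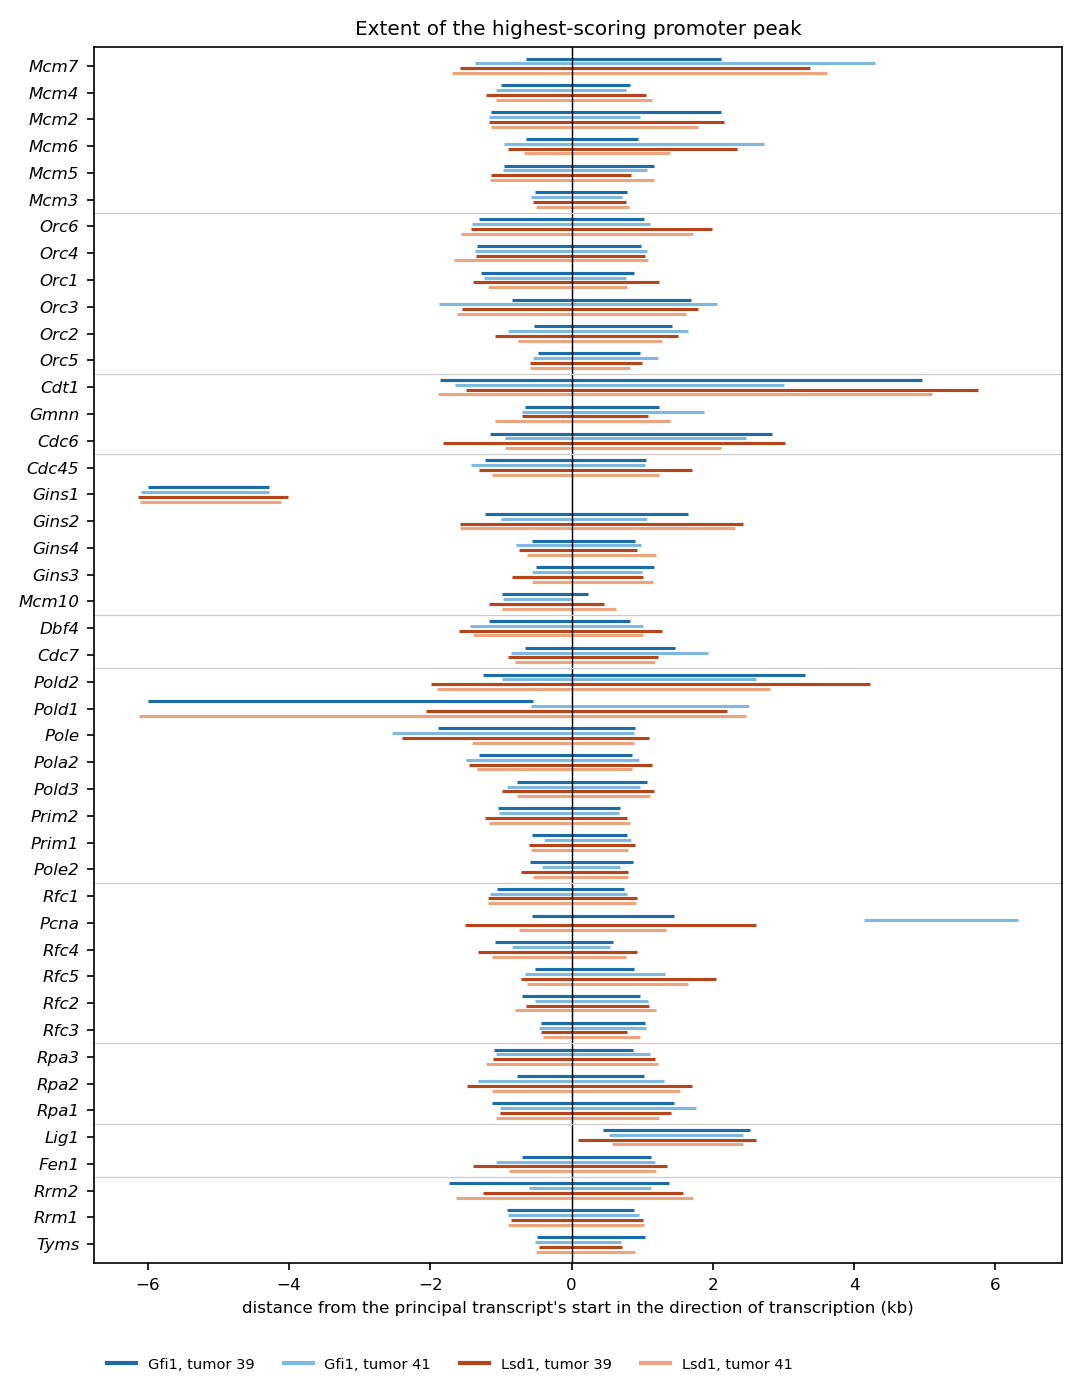
Extent of the highest-scoring promoter peak of each replication gene in each library (lines), as the distance in kb from the start of the principal transcript (x axis, positive in the direction of transcription). Nearly all peaks span the start; those of Gins1 lie upstream of it, those of Lig1 just downstream, and the Gfi1 peak of Pcna in tumor 41 lies from 4143 to 6321 bp downstream.

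At 4 members the highest-scoring peak was not always on the principal start. For Gins1, a subunit of the GINS complex, all 4 of these peaks lay at the far upstream start of the gene, near that of Abhd12 (chr2:150903597-150905308 in Gfi1 of tumor 39, mm10), with percentiles of 91.6 and 80.0 for Gfi1 and 86.1 and 91.6 for Lsd1. Separate peaks lay on the principal start of Gins1 (chr2:150909063-150910340 in the same library), and they stood lower, at 83.1 and 69.6 for Gfi1 and 73.8 and 76.6 for Lsd1. For Pcna, the Gfi1 peak of tumor 41 lay at an annotated start at the other end of the gene (chr2:132246993-132249171), and the peak on its principal start was at 86.8. The Lig1 peaks began downstream of the principal start in every library and lay over other annotated starts, among them that of the printed window. For Pold1, the Gfi1 peak of tumor 39 lay wholly upstream of the principal start, which a separate peak covered. When the principal start alone was used, all 45 members still had a peak in all 4 libraries (52.0% of all genes) and the median percentiles became 84.1 and 79.1 (Gfi1) and 83.1 and 81.1 (Lsd1), beside 82.8, 77.9, 79.3 and 81.3 over all genes with a peak there.

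Several of these promoters lie next to a second gene. A coding gene on the other strand started within 1000 bp upstream of the principal start of 12 members (26.7%, against 9.45% of all autosomal genes). In all, the peak of 14 members lay also within 1000 bp of another coding gene's start in every library, a count that was not made for all genes. A peak list cannot say for which gene the factor was there. The pairs were Mcm4 with Prkdc, the kinase of DNA end joining, Mcm7 with Ap4m1, Orc1 with Prpf38a, Orc3 with Rars2, Orc4 with Mbd5, Orc6 with Vps35, Cdc45 with Ufd1 and Gins1 with Abhd12. The others were Dbf4 with Slc25a40, Pole with Pxmp2, Rpa1 with Smyd4, Rpa3 with Umad1 and Gm45062, Fen1 with Tmem258 and Lig1 with Zswim9. The closest starts were those of Orc3 and Rars2, 13 bp apart.

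Members with such a divergent neighbor ranked higher. Their median percentiles reached 90.7 and 92.5 for Gfi1 and 86.4 and 86.4 for Lsd1 (n = 12), and those of the other members 79.8 and 76.9 for Gfi1 and 79.9 and 79.1 for Lsd1 (n = 33). The same order was present over all genes with 4 peaks, at 91.2, 88.3, 87.9 and 89.5 with a divergent neighbor and 85.1, 76.0, 79.9 and 82.9 without one. Of the 5 high subunits of the origin recognition complex, Orc1, Orc3, Orc4 and Orc6 had a divergent neighbor, while Orc2 and the low Orc5 had none. Of the MCM subunits, Mcm4 and Mcm7 had one. There were exceptions in both directions. Rpa1 and Fen1 had a divergent neighbor and means of 77.7 and 78.8, and Pold2, Rfc1 and Cdt1 had none and means of 97.4, 97.3 and 89.9. Lig1 (mean 95.4) had none upstream of its principal start, but its peaks lay off that start and were shared with Zswim9. The part of the shared promoter in these ranks was not tested.

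Other genes of the cell cycle were also occupied nearly throughout. Of 38 further replication genes matched, such as Timeless and Tipin of the fork protection complex and the histone chaperone genes Chaf1a and Chaf1b, 37 had a peak in all 4 libraries (54.8% of all genes), and the exception was Mcmdc2, an MCM-domain gene of meiosis. The medians of their percentiles came to 87.2 and 80.6 for Gfi1 and 83.3 and 85.7 for Lsd1. Of 55 mitosis genes, 55 had a peak in all 4 libraries, with medians of 85.7 and 79.4 for Gfi1 and 81.3 and 82.4 for Lsd1. High-confidence peaks of both factors were at 13 of the 38 further replication genes and at 18 of the 55 mitosis genes, beside 20.5% of all genes and 36.6% of CpG-rich genes. A peak at every member was thus also found for the mitosis genes, and differences between these lists were not tested.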

How the data were processed

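ChIP-seq peak lists of 4 libraries were analysed, Gfi1 and Lsd1 in each of 2 MG tumors. Per the labels and the study's methods, the authors aligned reads to mm10 with BWA 0.6.2, merged files with Picard, removed duplicates and called peaks with MACS in each library against input chromatin. The MACS version and the input used for each list are not given in the sources used here. The deposited files give positions with 1 score for each peak. The definition of the score is not given in the sources used here, it is not comparable between lists, and it was used only as a midrank percentile within its list. Genes were also ranked among the genes with 4 peaks, a choice made after seeing the data.

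Starts of all transcripts of each gene were taken from GENCODE M21 (mm10), where the study used an earlier release. A peak belonged to a gene when it lay within 1000 bp of a start, and could belong to several genes. Factors overlapped when their peaks shared at least 1 bp. The libraries were paired by tumor, since both antibodies were used on the same 2 tumors. The comparison set was all 20807 autosomal protein-coding genes. No test was run: with 2 tumors and a listed gene set, results are counts, medians and SDs over tumors. The members, gene lists and motifs were chosen with earlier results of these data known. Members were named when they were among the 6 highest or 6 lowest mean percentiles, the 3 largest differences between factors in each direction with the same sign in both tumors, an MCM2-7, ORC or loading factor, the highest of a role group, or shared a peak with another coding gene; the other members were named after their values were seen. Alternatives varied the distance, the starts, the peak chosen, the cutoffs, the overlap, the pairing and the background. Assignment of peaks was checked on simulated peaks at known distances. Python 3.11.15 with numpy 2.4.6, scipy 1.17.1, pysam 0.24.0 and matplotlib 3.10.9 was used.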

Additional observations from a re-analysis of the deposited data

How the results depend on the processing

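The peak at 45 of 45 members in every library, and the overlap of the factors there, held at a distance of 0 bp and of 2500 bp, with the 5'-most, the protein-coding or the principal start alone (the last chosen after seeing the data), with peaks given only to the gene with the closest start, and with 50% of the shorter peak required to overlap. Without the pairing, with Gfi1 of one tumor set against Lsd1 of the other and so no replicate block, the overlap was also 100% of members. Of 208 members' values under these alternatives, 160 were equal to the reported ones, many because the alternative could not alter them. Another 36 changed within the spread between tumors (1.5 times for single shares) and 12 moved further. For results that are means over the 2 tumors, leaving 1 tumor out always stays within that spread, so it could not count as moved. In addition, ranks among the genes with 4 peaks, chosen after seeing the data, turned the median difference between factors: it was 5.10 within lists and -1.08 by these ranks in tumor 39, and -3.17 and 6.28 in tumor 41. They also moved the members with Gfi1 above Lsd1 from 31 to 22 and from 18 to 30. Over the 11408 genes the counts moved from 8041 to 5911 and from 3388 to 6055. Within lists the factor with the longer list had the higher median in each tumor. The ranks among genes leave list length out, and its part in the difference was not tested.

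The cutoff on the score moved the counts most, as its construction requires. The share of members in the upper part of the score, 54.4% for Gfi1 and 61.1% for Lsd1 as means of the tumors, was 30.0% and 21.1% at the upper 10% and 93.3% and 93.3% at the upper 40%. Over all autosomal genes the Gfi1 share was 31.9% with the 20% cutoff, 17.4% with 10% and 49.4% with 40%. For Lsd1 it was 31.7%, 17.2% and 49.9% in the same order. With the 10% cutoff the members' Lsd1 share (21.1%) was thus much nearer to that of all genes than with 20%. The members' Lsd1 share was 58.9% with the starts of protein-coding transcripts or the principal start. High-confidence peaks were at 22.2% (Gfi1), 15.6% (Lsd1) and 11.1% (both) of members at the upper 10%, and at 86.7%, 88.9% and 84.4% at the upper 40%. For all autosomal genes the 10% cutoff gave 11.5%, 13.5% and 8.47%, and the 40% cutoff gave 41.5%, 46.6% and 39.9%. The members' high-confidence Lsd1 share with the 10% cutoff (15.6%) was thus close to that of all genes (13.5%). That of Gfi1 (22.2%) remained higher than in all genes (11.5%). With 1 tumor left out, the members' median percentile ranged from 80.0 to 84.8 for Gfi1 and from 81.6 to 83.2 for Lsd1, and the share in the upper 20% from 48.9% to 60.0% and from 60.0% to 62.2%. The lists hold no counts, so no interval for a single peak can be given. With 2 tumors the SDs describe levels, and differences between members and all genes were not tested.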
